A study of Mus musculus with 9 samples.

Results

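The fragile X protein FMRP binds mRNAs, in neurons mostly those of synaptic and cytoskeletal proteins, and holds back their translation. It has a pair of close relatives, encoded by Fxr1 and Fxr2, and it works with partner proteins, among them the CYFIP and NUFIP proteins, which were named for binding it. CYFIP1 and CYFIP2 join FMRP to the cap-binding factor eIF4E and also sit in the WAVE complex, which drives actin branching. NUFIP1 is a nuclear partner that assembles box C/D small nucleolar ribonucleoproteins, NUFIP2 is a partner found in the cytoplasm, and Caprin1 carries mRNAs in granules together with G3BP1. The mRNAs of these 8 genes (Fmr1, Fxr1, Fxr2, Cyfip1, Cyfip2, Nufip1, Nufip2 and Caprin1) were followed in striatal cells with and without expanded huntingtin. They were taken by symbol from the 36410 genes of the deposited count table, and 8 of 8 passed the filter on low counts that left 13508 genes.

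The cells were 3 immortalized lines made from mouse embryos of C57/BL6 background, as the labels give it. The control line (STHdhQ7/Q7) carries knocked-in huntingtin exon 1 with 7 glutamine codons on both alleles, HD-het (STHdhQ7/Q111) has 1 allele with 7 and 1 with 111, and HD-homo (STHdhQ111/Q111) has 2 alleles with 111. No treatment was given, and poly(A) RNA of 3 libraries per line was sequenced. A genotype and its line cannot be told apart, since there is 1 line of each. No label says that the libraries of a line came from separate cultures, so p values measure the spread between libraries, which may be technical.

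The count table holds 29507665 to 41197931 reads per library. Values are normalized counts per megaread (CPM), with the SD of 3 libraries, and 3 counts correspond to between 0.071 and 0.101 CPM, a floor that covers counting error only. Lines were compared by the quasi-likelihood test of edgeR, adjusted by the method of Benjamini and Hochberg over all tested genes, and a gene was called at an adjusted p under 0.05. Control replicate 3, HD-het replicate 3 and HD-homo replicate 2 stood apart from the other libraries of their line, with variances of between 11 and 39.3 times that of counting. The spread was wide in HD-homo cells as a whole, since replicates 1 and 3 also differed by 22.6 times counting, against 27 for replicates 1 and 2. Huntingtin mRNA (Htt) was 100 ± 6.00 CPM in control, 62.3 ± 1.51 in HD-het and 20.2 ± 1.29 in HD-homo cells, and it passed the test in all 3 comparisons. The count per gene does not show the length of the repeat. The labelled cell type is striatal. Of 14 markers of neurons and striatal projection neurons, 8 lay at or under the floor in control and HD-homo cells and 7 in HD-het. The dopamine receptors Drd1 and Drd2 were among them. The 14 summed to 183 to 213 CPM in control, 224 to 228 CPM in HD-het and 252 to 297 CPM in HD-homo libraries. Most of it came from Foxp1 (93.8, 114 and 168 CPM in control, HD-het and HD-homo in turn), Map2 (62.9, 60.4 and 59.7 CPM) and Tubb3 (42.4, 50.8 and 37.8 CPM). Markers of neural progenitors summed to 5890 to 6360 CPM in control, 5320 to 5820 CPM in HD-het and 4160 to 4570 CPM in HD-homo libraries, most of it Vim, at 5380, 4570 and 4260 CPM. Nes, Sox2 and Pax6 were at 526, 128 and 32.1 CPM in control cells, at 840, 82.9 and 48.2 CPM in HD-het cells and at 28.4, 5.48 and 0.132 CPM in HD-homo cells. Mesenchymal markers summed to 4620 to 5850 CPM in control and 12800 to 14700 CPM in HD-het libraries. In HD-homo libraries they summed to 6220 to 6790 CPM. Single mesenchymal genes went different ways. Col1a2 was at 73.4, 3.15 and 1490 CPM and Acta2 at 2270, 5290 and 91.8 CPM in control, HD-het and HD-homo in turn. The lines thus differ in many genes at once, and the part of this in the values below was not tested.

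Members of these families are similar in sequence, so the stretches they share were read from GENCODE transcripts on GRCm38 to see whether short reads could be counted on the wrong member. The longest runs shared in coding sequence are shown in capitals, each with 18 bases of its own gene on either side. Cyfip1 and Cyfip2 share 24 bases, coding bases 1024 to 1047 of both, in exon 11 of 31. The Cyfip1 window lies on the plus strand at chr7:55887835-55887894 and the Cyfip2 window on the minus strand at chr11:46270597-46270656.
Cyfip1: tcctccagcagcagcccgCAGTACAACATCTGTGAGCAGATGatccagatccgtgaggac
Cyfip2: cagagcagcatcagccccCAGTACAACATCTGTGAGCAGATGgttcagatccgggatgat
Fxr1 and Fxr2 share 20 bases across the junction of exons 3 and 4 (coding bases 181 to 200 of Fxr1 and 211 to 230 of Fxr2, both on the plus strand).
Fxr1: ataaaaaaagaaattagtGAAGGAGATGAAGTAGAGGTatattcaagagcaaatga
Fxr2: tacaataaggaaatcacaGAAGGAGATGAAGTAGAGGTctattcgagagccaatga
Fmr1 and Fxr1 share 14 bases, in exon 15 of 17 of Fmr1 (chrX:68712242-68712291) and exon 13 of 17 of Fxr1 (chr3:34061839-34061888), both on the plus strand.
Fmr1: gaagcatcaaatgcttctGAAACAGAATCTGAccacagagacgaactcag
Fxr1: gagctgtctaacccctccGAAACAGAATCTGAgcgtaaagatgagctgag
No run of 50 bases was common to any pair of the 8 genes.

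Other genes do share 50-base words with some members. The largest share was in Cyfip1 (chr7:55841745-55932602, plus strand), where 11.9% of the words also occur in other genes, mostly in Nipa2 on the opposite strand. In Fmr1 (chrX:68678541-68717963, plus strand) 2.23% of the words were shared, mostly with Dffa on the same strand, and in Fxr1 (chr3:34019943-34070322, plus strand) 1.79%, mostly with Dnajc19 on the opposite strand. The share was 0.363% in Nufip2 (chr11:77686155-77741921, plus strand). It was 0 in Fxr2 (chr11:69632990-69653297, plus strand), in Cyfip2 (chr11:46193850-46312859, minus strand), in Nufip1 (chr14:76110891-76137379, plus strand) and in Caprin1 (chr2:103762941-103797649, minus strand). The libraries are strand-specific, but the strand setting of the counting is not stated, so that reads of Cyfip1 and Nipa2 may not be separate. Nipa2 itself was lower in both HD lines, with log2 fold changes of -0.28 in HD-homo (adjusted p = 0.00104) and -0.31 in HD-het cells (adjusted p = 0.000463). Dffa was higher in HD-homo cells by 0.75 on the log2 scale (adjusted p = 5.02e-05). It had 3648 reads in all 9 libraries together, while Fmr1 had between 3215 and 8469 in each, and the part of shared reads in these values was not tested.

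Fmr1 mRNA was highest in HD-homo cells. The control libraries had 103, 116 and 109 CPM, the HD-het libraries 96.2, 105 and 101 CPM, and the HD-homo libraries 141, 201 and 150 CPM. The lowest HD-homo library lay above the highest of the other 6, while control and HD-het libraries overlapped. The rise of Fmr1 was 1.5-fold over control cells (log2 fold change 0.59, SE 0.112, adjusted p = 0.000924) and 1.63-fold over HD-het cells (log2 fold change 0.70, SE 0.112, adjusted p = 0.000165). Between HD-het and control cells the difference of -0.11 did not pass the test (95% interval -0.36 to 0.13, adjusted p = 0.39). HD-homo replicate 2 was the highest library, and without it the rise over control cells was 0.42 (adjusted p = 0.000307). The spread of Fmr1 over the HD-homo libraries was 19.5% of its mean. Over the 4744 genes with a mean of at least 50 CPM the median was 6.42% and the 95th percentile 19.3%, so that of Fmr1 was among the widest.

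**Figure D1:**
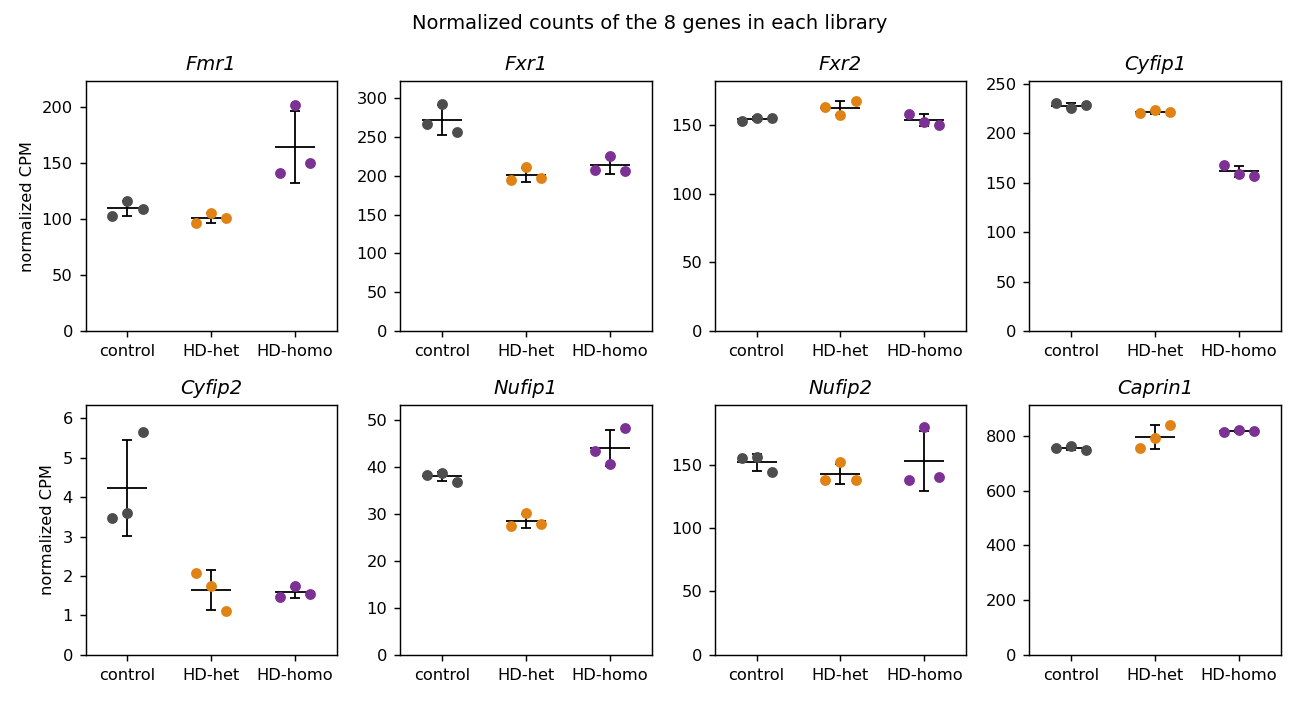
Normalized CPM of the 8 genes (vertical axes, each from 0) in control, HD-het and HD-homo in turn, with 1 point per library, replicates 1 to 3 from left to right, and the mean and SD of 3 libraries in black. Fmr1 lies between 141 and 201 CPM in HD-homo cells and at 116 CPM or lower in the other lines, Cyfip1 is lower in HD-homo cells, Fxr1 and Cyfip2 are lower in both HD lines, and Nufip1 is lowest in HD-het cells.

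Fxr1, the relative that is also needed in muscle, was lower in both HD lines. It had 266, 293 and 256 CPM in control cells, 194, 211 and 197 CPM in HD-het cells and 208, 226 and 206 CPM in HD-homo cells. Each of the 3 control libraries lay above all HD libraries, and the HD lines overlapped each other. The log2 fold change was -0.44 in HD-het (SE 0.0666, adjusted p = 0.000149) and -0.35 in HD-homo cells (SE 0.0665, adjusted p = 0.000955), and the HD lines differed by 0.09 (95% interval -0.06 to 0.24, adjusted p = 0.246).

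Fxr2 did not pass the test in any comparison. Its control libraries had 153, 155 and 155 CPM, its HD-het libraries 163, 157 and 167 CPM and its HD-homo libraries 158, 152 and 150 CPM. The HD-het libraries lay just above the control libraries, while the HD-homo libraries overlapped both. Against control cells the 95% interval of its log2 fold change was -0.12 to 0.10 for HD-homo and -0.04 to 0.18 for HD-het. The 3 relatives thus differed in their calls. Fmr1 rose in HD-homo cells, Fxr1 fell in both HD lines, and no change was detectable in Fxr2 within these intervals.

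Levels of different genes were compared per kilobase of merged exons, and in shares of the summed level of Fmr1, Fxr1 and Fxr2. The summed level was 94.6 ± 3.61 CPM per kilobase in control, 85.0 ± 1.18 in HD-het and 91.6 ± 5.01 in HD-homo cells. Fmr1 made up 12.9 ± 0.436% of it in control, 13.2 ± 0.458% in HD-het and 19.9 ± 2.80% in HD-homo cells. Its lowest share in an HD-homo library was 17.6% and its highest in the other lines 13.7%. Fxr1 made up 43.8 ± 1.5% in control, 36.0 ± 1.37% in HD-het and 35.6 ± 0.115% in HD-homo cells. With the longest transcript as the length, the shares of Fmr1 were 14.8%, 15.8% and 23.1% and those of Fxr1 53.9%, 46.1% and 44.3% in the same order. A change of length rescales a gene alike in all lines, so this is not a separate test of their order. With merged exons the Fmr1 shares of control and HD-het libraries overlapped, as did the Fxr1 shares of the HD lines.

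Cyfip1, which is expressed broadly, had its lowest level in HD-homo cells. It had 230, 225 and 228 CPM in control cells, 220, 223 and 221 CPM in HD-het cells and 168, 159 and 157 CPM in HD-homo cells. All HD-homo libraries lay below all others, and the small gap between the HD-het and control libraries did not pass the test. It was 1.41-fold below control in HD-homo cells (log2 fold change -0.50, SE 0.0492, adjusted p = 5.85e-06) and 1.37-fold below HD-het (log2 fold change -0.46, SE 0.0492, adjusted p = 7.53e-06). In HD-het against control cells the log2 fold change was -0.04 (95% interval -0.15 to 0.07, adjusted p = 0.471).

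Cyfip2, the form that predominates in neurons, had the fewest reads of the 8 genes. Its raw counts were 112, 121 and 167 in control cells, 74, 57 and 37 in HD-het cells and 48, 74 and 52 in HD-homo cells. These correspond to 3.48, 3.60 and 5.65 CPM, to 2.09, 1.74 and 1.11 CPM and to 1.47, 1.75 and 1.55 CPM. Every control library lay above every HD library. Against control cells, Cyfip2 was 2.58-fold lower in HD-het (log2 fold change -1.36, SE 0.247, adjusted p = 0.000538) and 2.67-fold lower in HD-homo cells (log2 fold change -1.40, SE 0.247, adjusted p = 0.000518). The difference between the HD lines was -0.04 with a wide interval, from -0.63 to 0.54. Control replicate 3 was the highest library and HD-het replicate 3 the lowest, and without HD-homo replicate 2 and both of these the log2 fold changes were -0.89 in HD-het (adjusted p = 0.00207) and -1.23 in HD-homo cells (adjusted p = 0.000533). Per kilobase, Cyfip1 exceeded Cyfip2 by 33.5 ± 8.29 times in control, 85.6 ± 28.9 times in HD-het and 60.8 ± 7.01 times in HD-homo cells, so that Cyfip1 supplied nearly all CYFIP mRNA in each line. With the longest transcript as the length, the ratios were 58.2 ± 14.4, 149 ± 50.6 and 106 ± 12.1 in the same order.

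Nufip1 moved in opposite directions in the HD lines. It had 38.4, 38.8 and 36.9 CPM in control cells, 27.4, 30.3 and 27.9 CPM in HD-het cells and 43.5, 40.7 and 48.3 CPM in HD-homo cells. The libraries of no 2 lines overlapped. The level in HD-het cells was 1.33-fold below control (log2 fold change -0.42, SE 0.0760, adjusted p = 0.000554) and that in HD-homo cells 1.55-fold above HD-het (log2 fold change 0.63, SE 0.0756, adjusted p = 1.76e-05). The rise over control cells in HD-homo was small (log2 fold change 0.21, SE 0.0750, adjusted p = 0.0296) and did not pass the test without control replicate 1, 2 or 3 (adjusted p = 0.0705, 0.058 and 0.0899) or without HD-homo replicate 3 (adjusted p = 0.11).

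Nufip2 and Caprin1 did not pass the test between any of the lines. Nufip2 had 155, 156 and 144 CPM in control cells, 138, 152 and 138 CPM in HD-het cells and 138, 180 and 140 CPM in HD-homo cells. HD-homo replicate 2 again stood above the rest, and the lines overlapped. Its log2 fold change in HD-homo against control cells was 0.01, was -0.13 without that library (adjusted p = 0.123), and was -0.16 without control replicate 3 and HD-het replicate 3 as well (adjusted p = 0.0473). Caprin1 was the most abundant member, with 756, 764 and 749 CPM in control cells, 755, 790 and 841 CPM in HD-het cells and 812, 820 and 817 CPM in HD-homo cells. The HD-homo libraries lay above the control libraries by a narrow gap, and the difference of 0.11 on the log2 scale did not pass the test (SE 0.0556, adjusted p = 0.11).

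**Figure D2:**
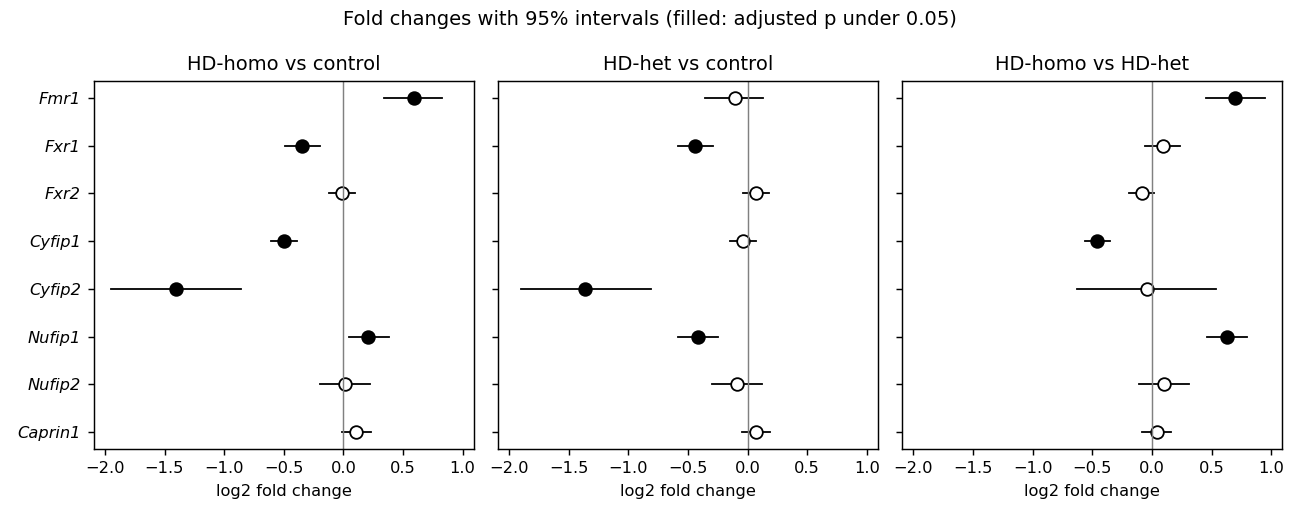
Log2 fold changes of the 8 genes (horizontal axis) in the 3 comparisons, with 95% intervals from edgeR's quasi-likelihood fit; filled points have an adjusted p under 0.05. Cyfip2 has the widest intervals and the largest decreases of the 8 genes, -1.40 and -1.36 against control cells, while between the HD lines Fmr1 and Nufip1 are higher and Cyfip1 is lower in HD-homo.

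Of the 8 genes, 5 were called between HD-homo and control cells, 2 higher and 3 lower, with a median log2 fold change of 0. Over all tested genes 58.6% were called, 29.6% higher and 28.9% lower, so the number among the 8 is near that background. Without the 3 libraries that stood apart 6 were called, Nufip2 being the added one. Between HD-het and control cells 3 were called, all of them lower (median -0.10), where 65.1% of the tested genes were called, 33.8% higher and 31.4% lower. Between the HD lines 3 were called, Fmr1 and Nufip1 higher in HD-homo and Cyfip1 lower (median 0.06), against 71.6% of tested genes, 36.0% higher and 35.6% lower. The libraries did not overlap for 6 members between HD-homo and control (65.3% of tested genes), for 5 between HD-het and control (74.0%) and for 3 between the HD lines (72.8%). Changes other than those of Cyfip2 were moderate in size for these lines. A larger absolute log2 fold change than that of Fmr1 in HD-homo against control cells was found in 30.7% of the tested genes, than that of Cyfip1 in 35.5%, and than that of Cyfip2 in 14.8%. For Fxr1, Nufip1 and Cyfip2 in HD-het cells these shares were 46.6%, 48.8% and 13.4%.

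Per kilobase of merged exons, Caprin1 led the order of levels in each line, with 74.0 ± 0.734, 77.8 ± 4.23 and 79.9 ± 0.395 CPM per kilobase in control, HD-het and HD-homo in turn. Fxr1 and Fxr2 followed and did not differ beyond their spread in control cells (41.5 ± 2.92 and 41.0 ± 0.307), while Fxr2 was the higher in HD-het (43.1 ± 1.34 against 30.6 ± 1.38) and in HD-homo cells (40.7 ± 1.11 against 32.6 ± 1.68). Next in control cells came Nufip2 (26.2 ± 1.15), Cyfip1 (19.1 ± 0.211), Fmr1 (12.2 ± 0.726), Nufip1 (9.57 ± 0.252) and Cyfip2 (0.597 ± 0.172). In HD-homo cells Fmr1 (18.3 ± 3.61) stood above Cyfip1 (13.5 ± 0.491). The length used matters here, since with the longest transcript Fxr1 lay above Fxr2 in all lines (70.8 against 52.0 in HD-homo cells) and Cyfip1 above Nufip2 in control cells (35.4 against 29.4), while Caprin1 stayed first and Nufip1 and Cyfip2 last.

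Fmr1 lies on the X chromosome. No read of Xist, the RNA that coats an inactive X, was counted in the 9 libraries, while the Y-linked gene Ddx3y was present in all lines, at 18.6 CPM in control cells and 15.4 CPM in HD-het and in HD-homo cells. The other Y-linked genes were at 5.72, 3.23 and 4.14 CPM (Eif2s3y), 2.38, 1.75 and 1.15 CPM (Uty) and 0.833, 0.785 and 0.559 CPM (Kdm5d) in control, HD-het and HD-homo in turn. The 20 tested genes nearest to Fmr1, which span 15.4 Mb, had a median log2 fold change of -0.09 in HD-homo against control cells, where Fmr1 was at 0.59. In HD-het cells they had a median of 0.36, with 11 called higher and 0 lower, where Fmr1 was at -0.11. Over all tested genes 33.8% were called higher and 31.4% lower in HD-het cells. Fmr1 thus lay outside the quartiles of its neighbours in both comparisons.

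Around Fxr1 on chromosome 3 the median was also below 0. The nearest 20 tested genes had a median of -0.31 in HD-het cells, with 12 called lower and 4 higher, and of -0.23 in HD-homo cells, with 11 called lower and 1 higher. Over all tested genes 31.4% were called lower and 33.8% higher in HD-het cells. In HD-homo cells these shares were 28.9% and 29.6%. The medians of all tested genes of chromosome 3 were -0.15 and -0.10, against 0.025 and 0.008 for all tested genes. By contrast, the 20 genes around Cyfip2 had medians of 0.22 and 0.09 in HD-het and HD-homo cells, and those around Cyfip1 had a median of -0.02 in HD-homo cells, with 7 higher and 9 lower. Around Nufip1 the medians were -0.06 in HD-het and -0.12 in HD-homo cells. The copy number of these regions was not measured.

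**Figure D3:**
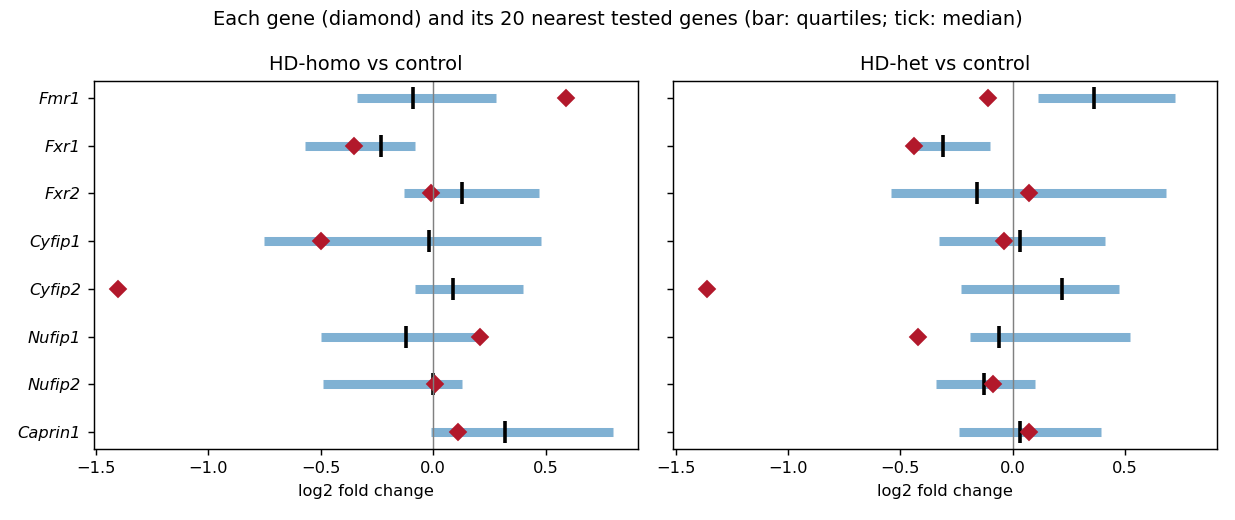
Log2 fold change (horizontal axis) of each of the 8 genes (red diamond) and of the 20 nearest tested genes on its chromosome (bar from lower to upper quartile, tick at the median) in HD-homo and HD-het against control cells. Fmr1 lies above the quartiles of its neighbours in HD-homo and below them in HD-het cells. Cyfip2 lies below the quartiles of its neighbours in both, and Fxr1 lies within those of its neighbours in HD-homo cells.

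CYFIP proteins work inside the WAVE regulatory complex, whose other subunits shifted in both directions. Of 10 listed genes 9 were tested, and in HD-homo against control cells 3 were called higher and 3 lower (median -0.01), while in HD-het cells 4 were called higher and 1 lower (median 0.24). These are 66.7% and 55.6% of the tested subunits, near the 58.6% and 65.1% of all tested genes. The nucleation-promoting subunits divided: Wasf1, the WAVE form of neurons, fell from 15.2 ± 1.09 CPM to 6.82 ± 0.102 CPM in HD-het and 7.99 ± 0.841 CPM in HD-homo cells. Wasf2, the broadly expressed form, rose from 119 ± 0.623 CPM to 141 ± 9.12 CPM in HD-het and 139 ± 11.8 CPM in HD-homo cells. Wasf3 rose in HD-het (27.6 ± 1.85 against 22.1 ± 1.33 CPM in control cells) and fell in HD-homo cells (13 ± 0.465 CPM). Nckap1, the subunit that holds CYFIP in the complex, rose in both, from 257 ± 13.8 CPM to 342 ± 22.1 CPM and 359 ± 5.82 CPM. Abi1, an adaptor, rose from 149 ± 1.67 CPM to 261 ± 14.9 CPM in HD-het cells and fell to 128 ± 6.18 CPM in HD-homo cells. Nckap1l, the form of blood cells, was called higher in HD-homo cells at a very low level (0.591 ± 0.240 against 0.259 ± 0.0811 CPM). Abi2, Brk1 and the activating GTPase Rac1 did not pass the test against control cells, with log2 fold changes of between -0.12 and 0.26, and Abi3 was too low to be tested. HD-homo cells thus combined less Cyfip1 with more Nckap1, by -0.50 and 0.48 on the log2 scale.

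The genes that build box C/D small nucleolar ribonucleoproteins with NUFIP1 were mostly lower in HD-het cells, as Nufip1 was. Of the 11 listed genes 10 were in the table and tested. In HD-het against control cells 9 were called lower and 1 higher, with a median of -0.71. Over all tested genes 65.1% were called there, 31.4% lower and 33.8% higher. In HD-homo against control cells 0 of 10 were called by edgeR, where 58.6% of all tested genes were called. Of the 10, 0 had an unadjusted p under 0.05, 0 were called by DESeq2, and the median was 0.03. With fewer libraries 1 was called, Pih1d1 without HD-homo replicate 3 (0.21, adjusted p = 0.0429) and Ruvbl1 without the 3 libraries that stood apart (0.26, adjusted p = 0.0055), both named after their values were seen. Between the HD lines 9 were called higher in HD-homo and 1 lower, where 71.6% of all tested genes were called, 36.0% higher and 35.6% lower. Snu13, the protein that first binds the RNA, had 177 ± 5.11 CPM in control cells, 74.2 ± 7.80 CPM in HD-het cells and 181 ± 14.4 CPM in HD-homo cells (log2 fold change in HD-het -1.25). Rpap3, a subunit of the chaperone that brings NUFIP1 to its clients, had 61.4 ± 1.03, 33.1 ± 1.18 and 62.5 ± 2.90 CPM (-0.89). Pih1d1, from the same chaperone, was the gene that rose in HD-het cells, from 22.5 ± 1.45 to 31.4 ± 1.38 CPM (0.48). Nufip1 itself, which is not counted in this list, was at 0.21 in HD-homo against control cells. As given above, that call was lost when any 1 control library or HD-homo replicate 3 was left out. Between the HD lines Nufip1 was at 0.63, where the median of the list was 0.66.

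**Figure D4:**
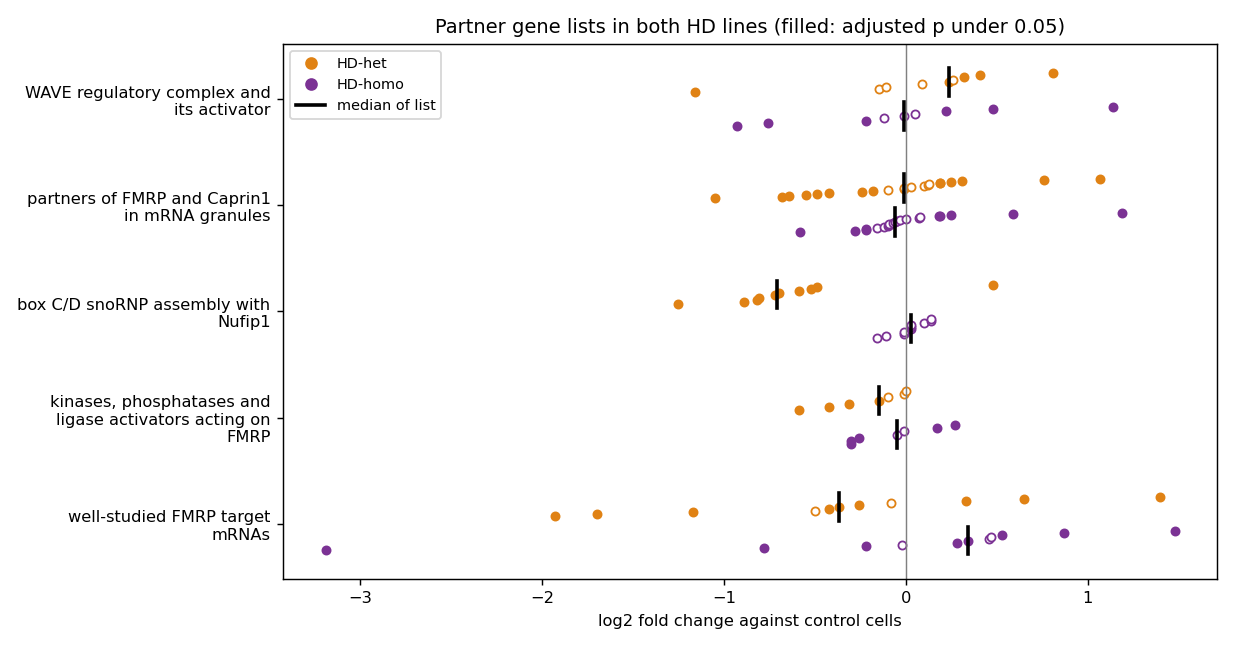
Log2 fold change against control cells (horizontal axis) of the tested genes of 5 partner lists (rows) in HD-het (orange, upper points) and HD-homo cells (purple, lower points); filled points have an adjusted p under 0.05 and black bars are medians. In the box C/D list all 10 HD-het points are filled, 9 of them below 0, and 0 of the HD-homo points are filled.

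Among 21 partners of FMRP and Caprin1 in mRNA granules, 9 were called between HD-homo and control cells, 5 higher and 4 lower (median -0.06), and 14 between HD-het and control cells, 6 higher and 8 lower (median -0.01). These are 42.9% and 66.7% of the list, where 58.6% and 65.1% of all tested genes were called. In HD-het cells the largest decreases were in Pabpc1, the poly(A)-binding protein, which went from 2500 ± 134 to 1210 ± 118 CPM (log2 fold change -1.05), and in the cap-binding factor Eif4e, from 301 ± 4.18 to 188 ± 9.79 CPM (-0.68). The double-stranded RNA binders Stau2 and Stau1 rose there by 0.76 and 0.31 on the log2 scale. In HD-homo cells the RNA helicase Mov10 rose from 15.6 ± 0.736 to 23.6 ± 1.53 CPM (0.59) and Stau1 by 0.25, while Pura fell from 54.7 ± 0.886 to 36.5 ± 1.64 CPM (-0.58) and Purb by 0.28 on the log2 scale. Pabpc1 and Eif4e did not pass the test in HD-homo cells (0.08 and -0.12). Caprin2, the relative of Caprin1, was singled out after its values were seen. It rose in both lines from a low level, from 4.32 ± 0.146 CPM to 9.10 ± 0.994 CPM in HD-het and 9.83 ± 0.993 CPM in HD-homo cells.

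Of 7 genes whose products modify FMRP or direct its turnover, 2 were called higher and 3 lower in HD-homo cells and 0 higher and 4 lower in HD-het cells against control cells, with medians of -0.05 and -0.15. The called shares of 71.4% and 57.1% compare with 58.6% and 65.1% of all tested genes. Fzr1, an activator of the ligase that marks FMRP for degradation, was lower in both, with 91.6 ± 2.44 CPM in control, 61.0 ± 2.03 in HD-het and 74.2 ± 9.33 in HD-homo cells. The casein kinase 2 subunit Csnk2a2 had 105 ± 3.54, 78.7 ± 0.152 and 127 ± 17.9 CPM, lower in HD-het (-0.42) and higher in HD-homo cells (0.27). Its HD-homo libraries, at 135, 107 and 140 CPM, overlapped the control libraries, at 109, 102 and 106 CPM. Csnk2b, the regulatory subunit, was at -0.30 and the phosphatase subunit Ppp2ca at 0.17 on the log2 scale in HD-homo cells, and both passed the test. In HD-het cells Csnk2b was at -0.31 and Ppp2ca at -0.15, both called lower. Ppp2cb, another phosphatase subunit, was named after its values were seen. It was called lower in HD-homo cells (-0.26) and did not pass the test in HD-het cells (-0.10).

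Of 15 well-studied target mRNAs of FMRP 11 were tested. In HD-homo cells 5 were called higher and 3 lower (median 0.34), and in HD-het cells 3 higher and 6 lower (median -0.37). These are 72.7% and 81.8% of the tested targets, against 58.6% and 65.1% of all tested genes. Map1b, which encodes a microtubule-binding protein, fell from 237 ± 10.1 CPM in control to 72.9 ± 1.80 in HD-het and 25.9 ± 4.33 CPM in HD-homo cells, with log2 fold changes of -1.70 and -3.19. Arc, an immediate early gene of synaptic plasticity, fell from 82.2 ± 7.27 to 21.5 ± 7.78 CPM in HD-het cells (-1.93) and rose to 230 ± 83.4 CPM in HD-homo cells (1.48). Its HD-homo libraries were far apart, at 165, 200 and 324 CPM, and all of them exceeded the highest control library at 88.4 CPM. App, the amyloid precursor, rose in both, from 269 ± 11.2 to 708 ± 21.4 CPM (1.40) and 490 ± 38.6 CPM (0.87). Dlg4, a postsynaptic scaffold, was at -0.37 in HD-het and -0.78 in HD-homo cells, and Homer1, another one, at 0.33 and 0.53, all past the test. Grm5, Shank1, Shank3 and Kcnd2 were too low to be tested. These are mRNA levels, and translation of the targets was not analysed here.

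The genes whose levels followed those of the members most closely over the 9 libraries were named by the highest Pearson r of log2 CPM, as a description, since the libraries come from 3 lines and r is set largely by differences between lines. For Fmr1 these were Lin54 (r = 0.982), Nr4a2 (0.981), Top1 (0.978), Kif15 (0.978) and Frk (0.972), and 292 genes had an r over 0.9. Top1, the DNA topoisomerase, had 180 CPM in control, 165 in HD-het and 249 in HD-homo cells. Cyfip1 was most like Acsl6 (0.996), which was near 0 in HD-homo cells (0.0488 CPM) and at 8.83 and 8.24 CPM in control and HD-het cells. Cyfip1 had an r over 0.9 with 1068 genes. Nufip1 was most like the small GTPase gene Rap1b (0.996), with 347, 270 and 394 CPM in control, HD-het and HD-homo in turn, and 1001 genes had an r over 0.9 with it. For Fxr1 it was Tmem38b (0.988), for Cyfip2 Hoxb13 (0.976), for Nufip2 Hsp90b1 (0.955), for Caprin1 Disp1 (0.943) and for Fxr2 Lsm14b (0.935). Hoxb13 was at 1.42 CPM in control cells and near the floor in HD-het (0.166 CPM) and HD-homo cells (0.191 CPM). Nufip2, Caprin1 and Fxr2 had few such genes, 6, 9 and 14 with an r over 0.9.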

How the data were processed

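The authors deposited raw counts per gene for 9 libraries. Per the labels, poly(A) RNA was made into directional libraries, and the submitters' processing notes name cutadapt, Bowtie 1.1.2, RSEM 1.3.0, DESeq2 and the builds GRCm38.p5 and mm10, without role or order. The annotation and the strand setting of the counting are not given in the sources used here. Libraries were grouped by genotype as labelled. Counts were filtered by filterByExpr (minimum count 10), normalized by TMM and fitted with edgeR 4.0.16 in R 4.3.3 with 1 mean per line over all 9 libraries. The quasi-likelihood test was two-sided. The SE was taken from the log2 fold change and the F statistic. Levels per kilobase used merged exons of GENCODE M21, and 97.1% of tested genes had a position there. Shared sequence was counted in 50-base words. Alternatives were other scalings and filters, DESeq2 1.42.0, a replicate block, a fit of only the 2 lines compared, a prior count of 2, stricter thresholds and leaving out libraries. Leaving out 3 libraries together was chosen after seeing the data.

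The 8 genes and the lists were chosen with earlier results of these data known. All WAVE genes are named; of the other lists, the 2 highest and 2 lowest calls of each HD line are named if 1 of the compared lines had 10 CPM or more. The most alike genes were taken as 5 for Fmr1 and 1 for each other member. Of the marker lists, astrocyte genes summed to 2.46 to 2.67 CPM in control and 0.62 to 1.23 CPM in HD-het libraries. In HD-homo libraries they summed to 12.5 to 17.8 CPM, most of it Slc1a3, at 14.6 CPM. Microglial genes summed to between 0.622 and 2.51 CPM and mesenchymal genes to between 4620 and 14700 CPM per library.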

Additional observations from a re-analysis of the deposited data

Results flagged for a closer look

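Nufip1 differed between the HD lines in direction. Against control cells it was lower in HD-het cells, by -0.42 on the log2 scale, and higher in HD-homo cells, by 0.21. The value of 0.21 did not pass the test in 4 of 15 alternatives (adjusted p of up to 0.11). The difference between the HD lines was itself tested in the fit over all genes and was 0.63 (edgeR's quasi-likelihood test, adjusted p = 1.76e-05). All 3 HD-homo libraries lay above all 3 HD-het libraries, and the libraries of these lines did not overlap in 72.8% of tested genes. A larger absolute log2 fold change was found in 39.1% of tested genes. The difference of 0.63 kept its direction and passed the test in all 15 alternatives, with values of between 0.56 and 0.69.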

How the results depend on the processing

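When log2 fold changes had to reach 0.5, 2 of the 8 genes were called in HD-homo and 1 in HD-het against control cells. Of the 58 tested partner genes, 11, 22 and 24 were called in HD-homo against control, HD-het against control and HD-homo against HD-het. Without this bound 28, 42 and 40 of them were called. Over all 13508 tested genes, 4392, 5157 and 6163 were called with the bound and 7910, 8797 and 9666 without it, in the same order. Direction turned only where the value of the main fit was near 0 and had not passed the test. Fxr2 turned in HD-homo against control with library totals (0.0017). Nufip2 turned in HD-homo against control without control replicate 3 or HD-homo replicate 2 (leave-one-out values from -0.13 to 0.08). Without the 3 libraries that stood apart Nufip2 was at -0.16 there, which passed edgeR's quasi-likelihood test (adjusted p = 0.0473). In HD-homo against HD-het Nufip2 turned without HD-homo replicate 2 (-0.03) and without those 3 (-0.06). Cyfip2 turned in HD-homo against HD-het without HD-het replicate 1 (0.17) or HD-homo replicate 1 (0.01), with leave-one-out values from -0.26 to 0.17. The cause was not tested. Leaving out 1 library at a time, between 4 and 5 of the 8 genes were called in HD-homo against control cells and 3 in each other comparison.

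Same-numbered libraries were not taken as paired, since the correlations of their deviations were not all over 0.1, the bound set for pairing. They ran from 0.0226 to 0.0398 in HD-homo and control, from 0.0682 to 0.245 in HD-het and control and from 0.0322 to 0.202 in the HD lines. All were above 0, however, and 6 of 6, 5 of 6 and 4 of 6 libraries correlated best with their own number, which is a hint from the data and not from the design. With the replicate block, 5, 3 and 3 of the 8 genes and 29, 43 and 41 partner genes were called in the 3 comparisons, and 8372, 9160 and 9938 genes in all against 7910, 8797 and 9666 without it. Cyfip2 rests on 37 to 167 reads per library, and levels per kilobase rest on the length chosen.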
